A study of Pyrus calleryana with 9 samples.

Results

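The genes that build fatty acids, place double bonds in them and lengthen their chains were followed in seeds of callery pear (Pyrus calleryana Decne, a pear widely used as a rootstock) during cold stratification, the moist chilling that releases seed dormancy. Genes were taken by name: 174 of the 59552 genes in the deposited expression table had a Swissprot match naming an acyl carrier protein, acetyl-CoA carboxylase, 3-ketoacyl-CoA synthase, fatty acid, omega-3, omega-6 or delta(12) desaturase, or diacylglycerol O-acyltransferase. The name search also took in 10 genes of other enzymes, such as lipoyl and octanoyl transferases. They form a role of their own below but are counted in all totals of the 174 genes and of those tested. The rule used names alone. Of the 174 genes, 31 had no read in any library and 103 passed the low-count filter and were tested.

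Seeds were imbibed, then kept on wet paper at 4 °C, and RNA of whole seeds was sequenced in 3 biological replicates, lettered A to C, at 0 d (imbibed, no cold), 20 d and 50 d. Each library pools many seeds of one garden population, and reads of this species were aligned to the genome of wild pear (P. betuleafolia), whose coordinates are given below. All stages shared seed source and imbibition, and the effect of cold cannot be told apart from that of time in storage. Totals ran between 13893019 and 16228340 counts per library, and the 174 genes held 0.271 to 0.297% of them at 0 d, 0.337 to 0.347% at 20 d and 0.333 to 0.368% at 50 d. The FPKM values below (fragments scaled to gene length and library size) are the authors' own and are per length.

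In plant cells, fatty acids are built in plastids. Acetyl-CoA carboxylase makes malonyl-CoA, the malonyl group is moved to acyl carrier protein (ACP), and the fatty acid synthase enzymes extend the chain in repeated rounds of condensation, reduction, dehydration and reduction. A stearoyl-ACP desaturase places the first double bond in stearate, and a thioesterase can free the chain. In membrane lipids, chains are desaturated by FAD2 and FAD3 in the endoplasmic reticulum (ER) or by plastid desaturases. Chains are also lengthened by 3-ketoacyl-CoA synthases (KCS) for waxes, or esterified by diacylglycerol acyltransferases (DGAT) into storage oil. Seeds fill their oil bodies during maturation and draw on them after germination, while membranes of plants in the cold are known to hold more polyunsaturated chains.

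At 50 d, 43 of the 103 tested genes differed from 0 d. Of these, 30 rose and 13 fell, with 5 carboxylase genes, 11 fatty acid synthase genes, 4 FAD5-type desaturases and both tested ER omega-3 desaturases among those that rose and 3 ACP genes and 5 genes of the DGAT role among those that fell. A gene was called where edgeR's quasi-likelihood test gave a Benjamini-Hochberg adjusted p of at most 0.01 over all 28339 genes tested, the log2 fold change reached 1 in either direction and one stage or both had a mean FPKM of 1 or more. With the same limits 26.6% of all tested genes were called in this comparison, 15.6% higher and 11% lower, beside 41.7% of the 103 genes. Lower calls, 13 of 103, were near the 11% of all genes, and higher calls, 30 of 103, were above the 15.6%. The median log2 fold change was 0.45 over the 103 genes and 0.16 over all genes tested. At 20 d, 30 genes were called against 0 d, 24 higher and 6 lower (29.1%), where 12.4% of all genes were called, 7.88% higher and 4.52% lower, with medians of 0.51 for the pathway genes and 0.15 for all. Between 50 d and 20 d only 2 genes were called, both higher at 50 d (1.94%), and the share over all genes was 1.66%, with 1.4% higher and 0.254% lower. The 3 comparisons share libraries, so they are not independent of each other. In whole seeds, fewer cells of a type and less RNA per cell cannot be told apart.

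**Figure D1:**
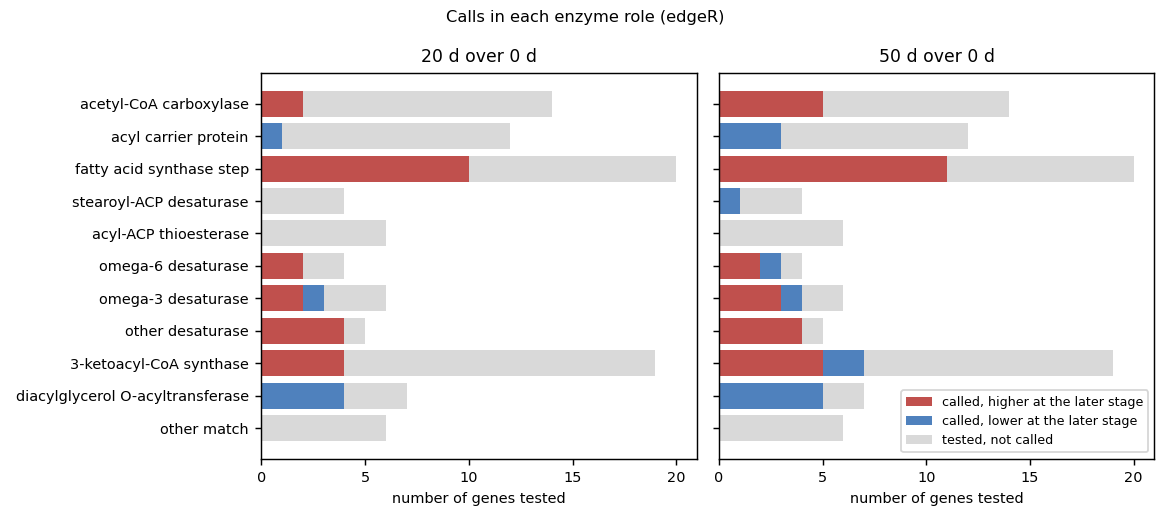
Number of tested genes in each enzyme role that were called higher (red), called lower (blue) or not called (grey) by edgeR, at 20 d over 0 d (left) and at 50 d over 0 d (right). Fatty acid synthase steps hold 11 higher calls of 20 genes at 50 d, and the diacylglycerol O-acyltransferase role holds 5 lower calls of 7.

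Libraries 20 d B and 50 d C stood apart. Pearson's r of log2 CPM was 0.972 between 20 d A and C but 0.878 and 0.889 with B, and 0.959 between 50 d A and B but 0.896 and 0.920 with C, against 0.949 to 0.963 among the 0 d libraries. These 2 libraries resembled the 0 d libraries in how signal lay over gene length: genes longer than 2 kb had a median deviation from the mean of all libraries, on the log2 scale, of -0.53 in 20 d B and -0.29 in 50 d C, with -0.49, -0.10 and -0.45 at 0 d, and of 0.42 to 0.58 in the other 20 d and 50 d libraries. Pathway genes called higher at 50 d had a median length of 1748 bases and those called lower of 1380 bases (1647 and 1218 bases over all genes called). An added alternative, chosen once the data had been seen, took this trend with length out of each library relative to the mean of the 9 libraries. It again called 43 genes at 50 d over 0 d, but 25 higher and 18 lower, and at 20 d over 0 d 39, 27 higher and 12 lower. Over all genes the same alternative called 9703 at 50 d (34.2%, against 26.6%) and 5497 at 20 d (19.4%, against 12.4%). The part of length in single results was not tested beyond these values. With both libraries left out, 51 genes were called in each of these comparisons, 34 higher and 17 lower, beside 9898 of all genes at 20 d and 12140 at 50 d (3515 and 7536 with all libraries). Taken alone, 50 d C was at least 2-fold above the 0 d mean for 29 of the 30 genes that rose at 50 d and at least 2-fold below it for the 13 that fell, and 20 d B did so for 23 of the 24 and the 6 called at 20 d.

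Calls at 50 d over 0 d were kept by 28 of the 43 genes in each of the 9 fits with 1 library left out, and those that lost theirs are named below. Of the 30 calls at 20 d over 0 d, 10 were kept in each such fit: both ER omega-3 desaturases, the enoyl-ACP reductases Chr11.g09805, Chr3.g20697 and Chr12.g37455, FAD2 Chr14.g48293, the FAD5-type Chr11.g11933 and Chr9.g46367, KCS10 Scaffold19.g58776 and WSD1 Chr7.g31721. The number called at 20 d over 0 d was 17, 14 and 12 without 0 d A, B or C and 15 without 20 d A or without 20 d C. Over all genes, 3515 (12.4%) were called with all libraries. Without 0 d A, B or C this was 1311 (4.47%), 1419 (4.85%) and 1236 (4.21%), and without 20 d A or C 1325 (4.50%) and 1348 (4.58%).

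Markers of seed tissues moved over the same stages. Of 21 tested seed reserve genes (legumins, vicilins, 12S seed storage proteins and oleosins), 9 were lower and 1, for a 12S seed storage protein, was higher at 50 d than at 0 d, and their summed level ran between 14684 and 27686 FPKM at 0 d, 14767 and 18697 FPKM at 20 d, and 2465 and 5880 FPKM at 50 d, with none of the 22 listed genes at 0 throughout. Of 22 tested green tissue genes (Rubisco small chains and chlorophyll a-b binding proteins), 15 were higher and 1 was lower, with sums of 171 to 269, 139 to 195 and 532 to 692 FPKM at 0, 20 and 50 d and 4 of the 39 listed genes at 0 in every library. Of 8 tested seed coat genes (anthocyanidin and leucoanthocyanidin reductases), 4 were higher and 1 was lower, with sums of 55.7 to 76.7, 23.5 to 34.5 and 76.1 to 126 FPKM and no listed gene at 0 throughout. The part of tissue proportions in the results below was not tested.

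Acetyl-CoA carboxylase, in its plastid form the committing step of fatty acid synthesis, rose at 50 d in 5 of 14 tested genes. All 5 calls were higher, a share of 35.7%, beside 26.6% of all genes called (15.6% higher and 11% lower). Plants hold a plastid form of several subunits and a single-chain cytosolic form (ACC1 in Arabidopsis), whose malonyl-CoA feeds chain elongation. Of the 5 called genes, 2 were ACC1 matches. ACC1 Chr15.g00911 had 0.126, 0.186 and 0.181 FPKM at 0 d, 1.94, 0.178 and 2.19 FPKM at 20 d and 4.57, 2.39 and 1.06 FPKM at 50 d. The level was high in A and C but at the 0 d level in B at 20 d, and no 50 d value overlapped the 0 d values. Its log2 fold change at 50 d over 0 d was 4.08 ± 0.83 (SE), adjusted p = 0.00223, by edgeR. A second ACC1, Chr13.g21687, had 0.0650, 0.150 and 0.216 FPKM at 0 d, 1.46, 0.193 and 1.13 FPKM at 20 d and 3.37, 3.52 and 0.545 FPKM at 50 d (4.16 ± 0.86, adjusted p = 0.00245). Both copies were lowest, within their stage, in the 2 libraries that stood apart, and with lengths of 7696 and 7478 bases they were the longest genes called; without the length trend their log2 fold changes were 3.17 and 3.11.

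In the plastid form, biotin carboxylase loads the carbon and the carboxyl transferase moves it to acetyl-CoA. Biotin carboxylase Chr13.g22260 had 5.97, 5.53 and 7.54 FPKM at 0 d, 20.6, 13.1 and 17.8 FPKM at 20 d and 21.2, 18 and 14.8 FPKM at 50 d. It was higher in every cold-treated library than in any 0 d library, with 1.57 ± 0.30, adjusted p = 0.00155 at 50 d over 0 d and 1.52 ± 0.30, adjusted p = 0.0041 at 20 d over 0 d. The carboxyl transferase alpha genes averaged 3.23 ± 0.788 FPKM at 0 d, 13 ± 7.60 FPKM at 20 d and 14.7 ± 4.98 FPKM at 50 d (SD, n = 3 each) for Chr12.g36061 (2.25 ± 0.49, adjusted p = 0.00319) and 2.21 ± 0.758 FPKM at 0 d, 8.85 ± 5.60 FPKM at 20 d and 9.40 ± 3.12 FPKM at 50 d for Chr4.g39974 (2.14 ± 0.54, adjusted p = 0.00786). At 20 d, the B library was lowest for both, and at 50 d the C library. Each of the 5 calls was lost in at least 1 fit with a library left out: the number of carboxylase genes called at 50 d was 2 without 0 d B, 1 without 0 d C, 3 without 50 d A or without 50 d B and 4 without 20 d C, and without 0 d A the adjusted p of all 5 was above 0.01, at most 0.0511 over these fits. Without the length trend, Chr13.g22260 was at 0.91, below the fold limit, Chr12.g36061 at 1.48 and Chr4.g39974 at 1.38. The remaining 9 tested genes, among them 2 biotin carboxyl carrier proteins, were not called.

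The carboxyl transferase beta gene Scaffold23.g58948 had the highest mean of the role, with 62.9, 10.9 and 17.1 FPKM at 0 d, 0.187, 94.1 and 0.286 FPKM at 20 d and 0.0769, 0.436 and 1.03 FPKM at 50 d. It was high in the 0 d libraries and in 20 d B and near 0 in the others, so the 20 d values lay on both sides of the 0 d values. It was not called (-5.85 ± 1.92, adjusted p = 0.0277, by edgeR at 50 d over 0 d), but passed with 20 d B and 50 d C both left out (-6.81) and in DESeq2 (-5.89). In most plants this subunit is encoded by the plastid genome, and Scaffold23 also carried genes named for the Rubisco large chain, photosystem proteins and plastid RNA polymerase. The summed FPKM of its other 29 genes followed the same libraries, at 1157, 237 and 363 at 0 d, 9.39, 639 and 14.8 at 20 d, and 41.1, 39.6 and 59.2 at 50 d.

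**Figure D2:**
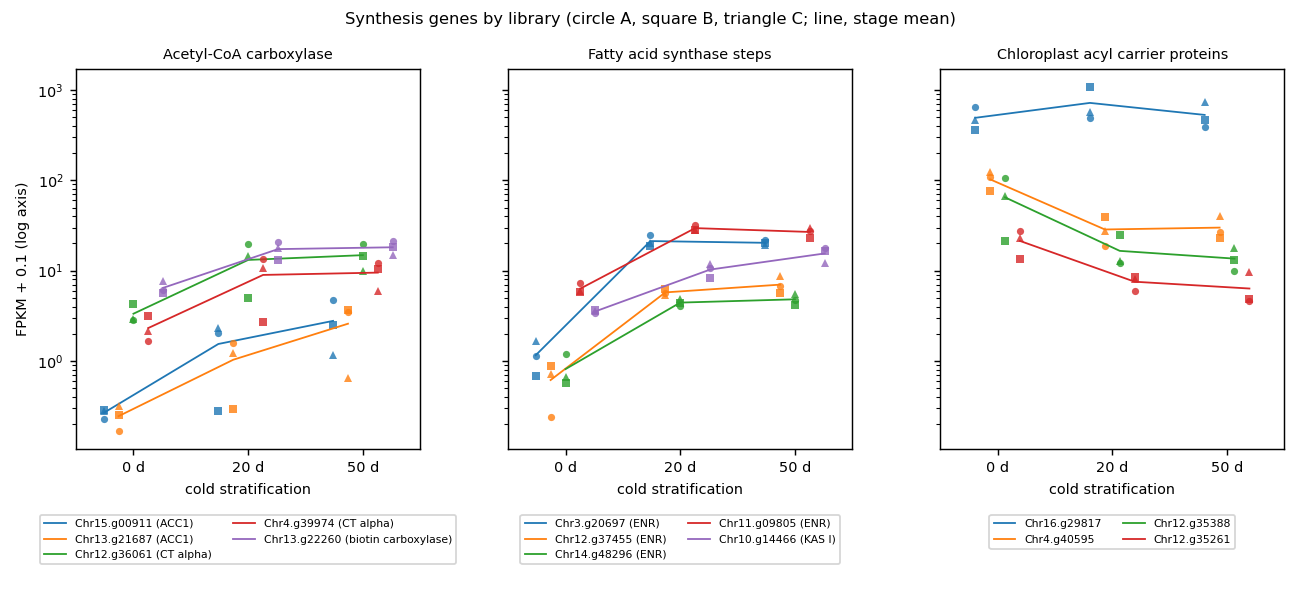
FPKM + 0.1 on a log axis in each library (circle A, square B, triangle C) with the mean of each stage as a line, for acetyl-CoA carboxylase, fatty acid synthase and chloroplast ACP genes. The 4 enoyl-ACP reductases (ENR) sit above all 0 d values at 20 d and 50 d, both ACC1 genes are low in 20 d B, and 3 of the 4 ACP genes drawn are lower at 50 d than at 0 d.

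In the fatty acid synthase steps, 11 of 20 tested genes rose at 50 d and 10 of them at 20 d, and none of the 20 was called lower at either stage. The share called was 55% at 50 d, beside 26.6% of all genes (15.6% higher). At 20 d it was 50%, beside 12.4% of all genes (7.88% higher). Enoyl-ACP reductase (ENR), which closes each round of elongation, rose in 4 of 4 genes. ENR Chr3.g20697 had 1.03, 0.580 and 1.55 FPKM at 0 d, 24.9, 18.5 and 20.0 FPKM at 20 d and 21.7, 19.9 and 19.1 FPKM at 50 d. It was low at 0 d in 3 of 3 libraries and stood near one level in all 6 cold-treated libraries, with 4.41 ± 0.39, adjusted p = 9.66e-05 at 20 d over 0 d and 4.33 ± 0.39, adjusted p = 2.28e-05 at 50 d over 0 d. Chr11.g09805, the most abundant ENR, had 7.21, 5.69 and 5.77 FPKM at 0 d, 31.8, 28.2 and 28.3 FPKM at 20 d and 27.7, 23.1 and 29.3 FPKM at 50 d (2.16 ± 0.27, adjusted p = 1.21e-04 at 50 d over 0 d). The others averaged 0.513 ± 0.334 FPKM at 0 d, 5.63 ± 0.425 FPKM at 20 d and 6.89 ± 1.52 FPKM at 50 d (Chr12.g37455, 3.76 ± 0.50, adjusted p = 1.83e-04) and 0.710 ± 0.338 FPKM at 0 d, 4.32 ± 0.370 FPKM at 20 d and 4.71 ± 0.665 FPKM at 50 d (Chr14.g48296, 2.79 ± 0.43, adjusted p = 4.14e-04). Summed over the 4 genes, ENR came to 8.50 ± 0.98 FPKM at 0 d, 60.5 ± 4.93 FPKM at 20 d and 58.5 ± 5.23 FPKM at 50 d (SD, n = 3 each), and 20 d B and 50 d C did not stand apart here.

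The condensing enzymes rose in 5 of 8 tested genes. Ketoacyl-ACP synthase III (KAS III) starts the chain, KAS I extends it to palmitate and KAS II adds the last step to stearate. KAS I Chr10.g14466 had 3.27, 3.53 and 3.50 FPKM at 0 d, 10.5, 8.18 and 11.8 FPKM at 20 d and 17.9, 16.3 and 12 FPKM at 50 d (2.23 ± 0.30, adjusted p = 1.97e-04 at 50 d over 0 d). The second KAS I, Chr5.g06323, averaged 3.60 ± 0.525 FPKM at 0 d, 13.6 ± 3.66 FPKM at 20 d and 12.3 ± 2.36 FPKM at 50 d (1.83 ± 0.33, adjusted p = 0.00106). KAS II Chr2.g41872 had 2.58, 3.16 and 3.32 FPKM at 0 d, 18.9, 8.43 and 15.9 FPKM at 20 d and 17.9, 18.6 and 9.62 FPKM at 50 d (2.41 ± 0.39, adjusted p = 5.53e-04). All values after cold lay above those at 0 d, with 20 d B and 50 d C the lowest of their stages. KAS II Chr15.g02882 averaged 6.44 ± 2.08 FPKM at 0 d, 21.8 ± 5.97 FPKM at 20 d and 21 ± 5.61 FPKM at 50 d (1.77 ± 0.37, adjusted p = 0.00273). KAS III Chr8.g54952, the most abundant gene of these steps, averaged 17.8 ± 1.81 FPKM at 0 d, 33 ± 7.36 FPKM at 20 d and 40.9 ± 8.83 FPKM at 50 d and was called at 50 d over 0 d (1.26 ± 0.30, adjusted p = 0.00554) but not at 20 d over 0 d (0.97 ± 0.30, adjusted p = 0.0308). Its log2 fold change without the length trend was 0.92, below the fold limit. The same setting gave 1.65 for KAS I Chr10.g14466 and 1.52 for KAS I Chr5.g06323. For KAS II it gave 1.63 (Chr2.g41872) and 1.03 (Chr15.g02882). The other 3 tested genes, chosen after their values were seen, were not called: KAS III Chr6.g52664 (0.67 ± 0.29, adjusted p = 0.0783), KAS III Chr9.g47204 (-0.86 ± 0.47, adjusted p = 0.162) and KAS II Chr9.g45728 (-0.55 ± 0.80, adjusted p = 0.603).

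Around the condensation, the malonyl-CoA:ACP transacylase Chr3.g20432, labelled mitochondrial in Swissprot, had 7.11, 6.95 and 7.15 FPKM at 0 d, 16.8, 19 and 14.7 FPKM at 20 d and 15.2, 15 and 15.2 FPKM at 50 d. The levels before and after cold were tight and did not overlap (1.16 ± 0.26, adjusted p = 0.00396 at 50 d over 0 d), and the change was below the fold limit without the length trend (0.77). The hydroxyacyl-ACP dehydratase (FabZ) Chr8.g56008 averaged 0.697 ± 0.589 FPKM at 0 d, 4.24 ± 1.33 FPKM at 20 d and 5.14 ± 0.973 FPKM at 50 d (2.94 ± 0.60, adjusted p = 0.00233). Calls at 50 d were lost by Chr8.g54952 and Chr3.g20432 without any one of the 0 d libraries, 50 d A or 50 d B (adjusted p up to 0.0319 and 0.0196), by Chr15.g02882 without 0 d A or C or 50 d A or B (0.0173) and by Chr8.g56008 without 0 d B (0.0135). Of the ketoacyl-ACP reductases, 3 were tested and not called, with Chr13.g23526 (chosen after its values were seen) averaging 2.78 ± 1.58 FPKM at 0 d, 7.65 ± 1.95 FPKM at 20 d and 6.39 ± 0.521 FPKM at 50 d (1.26 ± 0.41, adjusted p = 0.0275 at 50 d over 0 d).

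ACP is the small protein that carries the growing chain. At 50 d over 0 d 3 of its 12 tested genes fell and 0 rose. The share called, 25%, was near the 26.6% of all genes called, of which 15.6% were higher and 11% lower. All 3 were among the 7 tested chloroplast ACP genes. Chr16.g29817, the most abundant gene of all 174, had 648, 366 and 465 FPKM at 0 d, 494, 1093 and 576 FPKM at 20 d and 386, 469 and 736 FPKM at 50 d. Its stages overlapped (0.17 ± 0.39, adjusted p = 0.754 at 50 d over 0 d), and 20 d B and 50 d C were the highest of their stages. Chr4.g40595 had 109, 75.7 and 122 FPKM at 0 d, 18.7, 39.6 and 27.1 FPKM at 20 d and 26.4, 23 and 40.1 FPKM at 50 d and was lower in each cold-treated library than in any 0 d library (-1.76 ± 0.36, adjusted p = 0.0049 at 20 d over 0 d and -1.72 ± 0.36, adjusted p = 0.00267 at 50 d over 0 d). Chr12.g35388 averaged 64.7 ± 42.6 FPKM at 0 d, 16.4 ± 7.15 FPKM at 20 d and 13.5 ± 3.92 FPKM at 50 d (-2.20 ± 0.53, adjusted p = 0.00616 at 50 d over 0 d). For Chr12.g35261 the means were 21.2 ± 7.24 FPKM at 0 d, 7.43 ± 1.37 FPKM at 20 d and 6.23 ± 2.82 FPKM at 50 d (-1.71 ± 0.40, adjusted p = 0.00497). These are short genes of 435 to 891 bases, and without the length trend the 3 log2 fold changes were -1.76 (Chr12.g35388), -1.70 (Chr4.g40595) and -1.66 (Chr12.g35261). All 3 calls were lost without 0 d C, 50 d A or 50 d B, and those of Chr12.g35388 and Chr12.g35261 also without 0 d A, with an adjusted p of at most 0.0293. Chr16.g29817 made up 71.2%, 92.3% and 90.1% of the chloroplast ACP signal at 0, 20 and 50 d. Summed over the 13 chloroplast ACP genes, that signal was 692 ± 211, 781 ± 349 and 589 ± 202 FPKM (SD, n = 3 each), and the stages differed by less than the spread between replicates. Of the mitochondrial ACP genes, which serve the separate mitochondrial pathway, the most abundant was Chr2.g43201 (chosen after its values were seen), at 146 ± 34.6 FPKM at 0 d, 145 ± 65 FPKM at 20 d and 144 ± 101 FPKM at 50 d (0.04 ± 0.46, adjusted p = 0.954 at 50 d over 0 d).

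Stearoyl-ACP desaturase turns stearate into oleate. Chr10.g17247, named desaturase 6 and the highest of 4 tested genes, fell, with 155, 198 and 317 FPKM at 0 d, 94.1, 77.4 and 82.2 FPKM at 20 d and 72, 43.3 and 79.7 FPKM at 50 d. Values at 0 d were spread but stayed above the others, and the 20 d and 50 d values overlapped (-1.72 ± 0.35, adjusted p = 0.00235 at 50 d over 0 d). Without 50 d B the adjusted p was 0.0154. The adjacent copy Chr10.g17248, 1 gene away and chosen after its values were seen, stood at 7.37, 8.37 and 7.81 FPKM at 0, 20 and 50 d (log2 fold change of 0.15 at 50 d over 0 d). The difference between the neighbours was not tested.

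Acyl-ACP thioesterases, which release the finished chain, gave 0 calls of 6 tested genes by edgeR at 50 d over 0 d, with 1 gene at an unadjusted p under 0.05, 0 calls by DESeq2 and 0 by limma. The most abundant, palmitoyl-ACP thioesterase Chr15.g03225, had 27.9, 36.6 and 44.2 FPKM at 0 d, 20.9, 25.3 and 19.4 FPKM at 20 d and 24, 22.2 and 25.6 FPKM at 50 d (-0.54 ± 0.28, adjusted p = 0.136). It was lower in all cold-treated libraries than at 0 d, by less than the fold limit, and without the length trend the log2 fold change was -1.04, one of 2 thioesterase calls under that setting. The 10 genes of other enzymes also gave 0 calls by edgeR, DESeq2 and limma among 6 tested, with 1 at an unadjusted p under 0.05, and their most abundant gene, the plastid glycerol-3-phosphate dehydrogenase Chr7.g32215, averaged 27.8 ± 0.806 FPKM at 0 d, 20.1 ± 3.51 FPKM at 20 d and 32.3 ± 2.84 FPKM at 50 d (0.28 ± 0.26, adjusted p = 0.411).

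Of the omega-3 desaturases, 3 of 6 tested genes rose and 1 fell at 50 d over 0 d. ER omega-3 desaturase (FAD3 in Arabidopsis) converts linoleate to alpha-linolenate in membrane lipids. Chr11.g10324 (chromosome 11, 6072713 to 6075110 in the deposited coordinates) had 2.70, 3.21 and 3.90 FPKM at 0 d, 60.8, 48.3 and 52.2 FPKM at 20 d and 223, 214 and 183 FPKM at 50 d. The stages did not overlap at either step, and within a stage the replicates were close. The log2 fold change was 4.12 ± 0.31, adjusted p = 5.54e-05 at 20 d over 0 d, 1.93 ± 0.28, adjusted p = 0.00353 at 50 d over 20 d and 6.04 ± 0.34, adjusted p = 3.98e-06 at 50 d over 0 d. A second copy, Chr3.g20313 (chromosome 3, 5194552 to 5197364), had 0.342, 0.225 and 0.266 FPKM at 0 d, 12.8, 7.96 and 11.4 FPKM at 20 d and 56.4, 38.7 and 23.3 FPKM at 50 d. It moved at the same stages from a lower start, with 5.34 ± 0.46, adjusted p = 9.31e-05 at 20 d over 0 d and 7.21 ± 0.49, adjusted p = 7.52e-06 at 50 d over 0 d; at 50 d over 20 d the fold was 1.87 ± 0.36 and the adjusted p of 0.0123 missed the limit. Each copy lay within 2 genes of a further ER omega-3 match that was not tested, with 46 counts in all for Chr11.g10325 and none for Chr3.g20311.

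Plastid omega-3 desaturases act on plastid membrane lipids. Chr12.g35979 (chromosome 12, 20852414 to 20855394) had 139, 148 and 175 FPKM at 0 d, 57.6, 68.2 and 61.1 FPKM at 20 d and 41.6, 35.9 and 35.7 FPKM at 50 d. The stages did not overlap, and the level was lower after cold (-1.23 ± 0.26, adjusted p = 0.00622 at 20 d over 0 d and -1.97 ± 0.27, adjusted p = 2.15e-04 at 50 d over 0 d). The ER genes summed to 3.58 ± 0.56 FPKM at 0 d, 64.5 ± 8.64 FPKM at 20 d and 247 ± 37.3 FPKM at 50 d, and the plastid genes to 159 ± 19.6, 64.2 ± 5.94 and 41.7 ± 2.96 FPKM (SD, n = 3 each). The plastid sum was above the ER sum in every 0 d library and the ER sum above the plastid sum in every 50 d library, and at 20 d the order differed between libraries. Another plastid copy, Chr1.g57141, was nearly silent until 50 d, with 0.0437, 0.0336 and 0.0396 FPKM at 0 d, 0.0689, 0.0777 and 0.140 FPKM at 20 d and 1.76, 1.35 and 2.16 FPKM at 50 d, and was called at 50 d over 20 d (4.11 ± 0.57, adjusted p = 0.00271) and at 50 d over 0 d (adjusted p = 9.50e-05). With 3 counts at 0 d in all, its ratio at 50 d over 0 d was 45.1 times, with a 95% counting interval of 15.1 to 221, which covers counting error only.

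The calls at 50 d over 20 d were not kept in every fit with 1 library left out. Chr11.g10324 lost its call without 20 d A, 20 d C, 50 d A or 50 d B (adjusted p up to 0.0246) and Chr1.g57141 without 20 d A, 20 d C or 50 d A (0.0187). Calls over all genes also fell in these fits, from 470 to 99 without 20 d A, 75 without 20 d C, 191 without 50 d A and 134 without 50 d B. At 20 d over 0 d, Chr12.g35979 lost its call without 0 d B, 0 d C, 20 d A, 20 d C, 50 d A or 50 d B (0.0379).

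**Figure D3:**
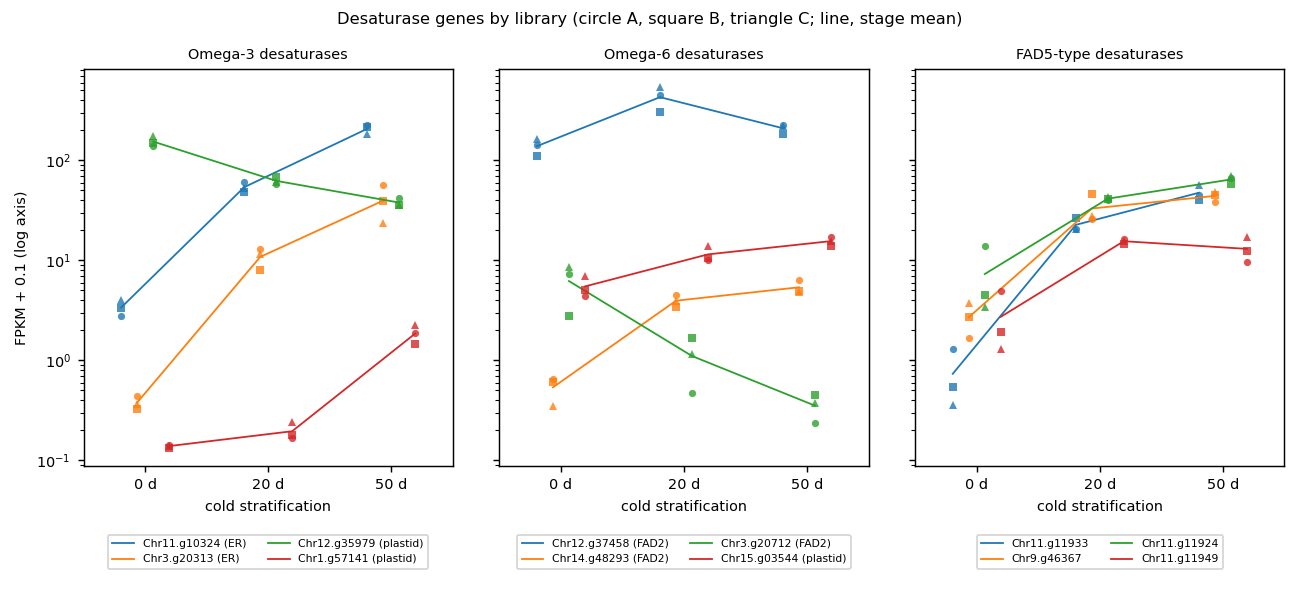
FPKM + 0.1 on a log axis in each library (circle A, square B, triangle C) with the mean of each stage as a line, for omega-3, omega-6 and FAD5-type desaturases. Every library of the ER omega-3 genes is higher, and every library of plastid Chr12.g35979 lower, than those of the stage before, and the most abundant FAD2, Chr12.g37458, is highest at 20 d.

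FAD2 makes linoleate from oleate in the ER. Most of the omega-6 desaturase signal came from FAD2 Chr12.g37458 (chromosome 12, 5259134 to 5262495), which had 142, 110.5 and 163 FPKM at 0 d, 446, 302 and 537 FPKM at 20 d and 224, 184 and 219.8 FPKM at 50 d. It was higher in each 20 d library than in any other library and was called at 20 d over 0 d (1.71 ± 0.32, adjusted p = 0.00294) but not at 50 d over 0 d (0.66 ± 0.31, adjusted p = 0.104) or at 50 d over 20 d (-1.05 ± 0.31, adjusted p = 0.075). The call was lost without any one of the 0 d libraries, 20 d A or 20 d C (adjusted p up to 0.0171). This gene held 95.5%, 98.9% and 97.4% of the FAD2 signal at 0, 20 and 50 d.

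The other FAD2 genes were low and moved in opposite directions. Chr14.g48293 (chromosome 14, 5483906 to 5487609) had 0.552, 0.509 and 0.250 FPKM at 0 d, 4.44, 3.29 and 3.82 FPKM at 20 d and 6.27, 4.83 and 4.74 FPKM at 50 d (3.64 ± 0.43, adjusted p = 8.65e-05 at 50 d over 0 d). Chr3.g20712 (chromosome 3, 1916339 to 1918098) had 7.15, 2.66 and 8.52 FPKM at 0 d, 0.373, 1.59 and 1.06 FPKM at 20 d and 0.136, 0.348 and 0.273 FPKM at 50 d (-4.51 ± 0.68, adjusted p = 3.78e-04). At 50 d over 0 d the first rose and the second fell without overlap, so of 3 genes with 1 Swissprot match 1 was called higher, 1 was called lower and 1 was not called. Plastid omega-6 desaturase Chr15.g03544, which acts on plastid lipids, averaged 5.38 ± 1.29 FPKM at 0 d, 11.4 ± 2.05 FPKM at 20 d and 15.5 ± 1.66 FPKM at 50 d (1.58 ± 0.29, adjusted p = 0.00133; 0.95 and no longer called without the length trend). By position, each FAD2 lay near an ENR gene, 3 genes away on chromosomes 12 and 14 and 15 genes away on chromosome 3. On chromosome 3, FAD2 Chr3.g20712 fell and ENR Chr3.g20697 rose.

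FAD5-type desaturases (palmitoyl-monogalactosyldiacylglycerol delta-7 desaturase in Swissprot), which in Arabidopsis desaturate palmitate on a chloroplast galactolipid, rose in 4 of 5 tested genes at both 20 d and 50 d over 0 d. Chr11.g11933 had 1.20, 0.440 and 0.259 FPKM at 0 d, 20.7, 26.5 and 20.5 FPKM at 20 d and 45.1, 39.8 and 57.1 FPKM at 50 d. Chr9.g46367 had 1.56, 2.62 and 3.61 FPKM at 0 d, 25.8, 45.5 and 27.4 FPKM at 20 d and 38, 45.3 and 48.7 FPKM at 50 d. Chr11.g11924, the most abundant, had 13.9, 4.40 and 3.31 FPKM at 0 d, 40.2, 40.7 and 43 FPKM at 20 d and 66.1, 57.6 and 69.2 FPKM at 50 d. In each of these 3 genes, every cold-treated library was above every 0 d library. At 50 d over 0 d the log2 fold changes were 6.30 ± 0.51, adjusted p = 1.65e-05 for Chr11.g11933, 4.13 ± 0.40, adjusted p = 3.25e-05 for Chr9.g46367 and 3.23 ± 0.48, adjusted p = 3.49e-04 for Chr11.g11924. Chr11.g11949 averaged 2.62 ± 1.96 FPKM at 0 d, 15.4 ± 0.970 FPKM at 20 d and 12.9 ± 3.82 FPKM at 50 d (2.37 ± 0.46, adjusted p = 0.00186) and lost its call at 50 d over 0 d without 0 d B (adjusted p = 0.0125) or without the length trend. The 3 genes of chromosome 11 lie 9 and 16 genes apart, and the rule by which reads shared by such copies were counted was not stated. Summed over the 14 genes of this match, the level came to 14 ± 7.91 FPKM at 0 d, 113 ± 13.2 FPKM at 20 d and 169 ± 20.4 FPKM at 50 d.

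KCS enzymes condense malonyl-CoA with an acyl-CoA to lengthen the chain in the ER. Of 43 genes, 11 had no read and 19 were tested, and 5 rose and 2 fell at 50 d over 0 d. The share called was 36.8%, beside 26.6% of all genes (15.6% higher and 11% lower). KCS10 Scaffold19.g58776 (FIDDLEHEAD in Arabidopsis, an epidermal enzyme) was the most abundant, with 7.89, 7.43 and 7.55 FPKM at 0 d, 26.4, 26.1 and 31.2 FPKM at 20 d and 42.3, 40.5 and 36.4 FPKM at 50 d. Replicates were tight and the stages did not overlap (1.95 ± 0.26, adjusted p = 6.32e-04 at 20 d over 0 d and 2.44 ± 0.27, adjusted p = 5.77e-05 at 50 d over 0 d). A short KCS10 match of 420 bases 5 genes away, Scaffold19.g58771, had 0, 0.297 and 0 FPKM at 0 d, 0.761, 2.40 and 1.24 FPKM at 20 d and 11.9, 5.11 and 17.2 FPKM at 50 d. It was near 0 in the 0 d libraries, and with 2 counts there its ratio at 50 d over 0 d was 98.2 times, with a 95% counting interval of 26.9 to 816 (adjusted p = 3.09e-04). KCS5 Chr1.g56819 had 0, 0 and 0.0523 FPKM at 0 d, 1.14, 0.719 and 1.21 FPKM at 20 d and 4.12, 3.69 and 5.15 FPKM at 50 d; with 1 count at 0 d the ratio at 50 d was 252 times, with a 95% counting interval of 44.9 to 9982 (adjusted p = 3.62e-05). KCS5 and KCS6 are wax-chain elongases in Arabidopsis. KCS6 Chr16.g31082 averaged 0.247 ± 0.142 FPKM at 0 d, 1.55 ± 0.512 FPKM at 20 d and 2.29 ± 0.942 FPKM at 50 d (3.23 ± 0.60, adjusted p = 0.00135). The fifth gene, KCS4 Chr15.g04715, chosen after its values were seen, averaged 0.695, 3.49 and 4.36 FPKM at 0, 20 and 50 d (2.70 ± 0.49, adjusted p = 0.0012).

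The KCS genes that fell were KCS19 Chr7.g32636, with 19.5, 13.2 and 12 FPKM at 0 d, 6.82, 9.08 and 12.1 FPKM at 20 d and 2.84, 2.38 and 1.35 FPKM at 50 d, and KCS7 Chr16.g29903, with 0.786, 2.69 and 1.48 FPKM at 0 d, 0.381, 0.591 and 0.486 FPKM at 20 d and 0.196, 0.222 and 0.0524 FPKM at 50 d. For KCS19 the 0 d and 20 d values overlapped and those at 50 d lay below both (-2.68 ± 0.39, adjusted p = 3.26e-04 at 50 d over 0 d). For KCS7 the fold was -3.27 ± 0.70, adjusted p = 0.00302, and the call was lost without 0 d B, 50 d A or 50 d B (adjusted p up to 0.0175). The summed KCS level ran between 95.5 and 104 FPKM at 0 d, 117 and 145 FPKM at 20 d, and 107 and 144 FPKM at 50 d, and Scaffold19.g58776 made up 7.63%, 21.7% and 30.8% of it.

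DGAT makes the last ester bond of triacylglycerol, and wax ester synthases of the WSD1 type, which also have DGAT activity in Arabidopsis, carry that name as well. In this role 5 of 7 tested genes fell at 50 d over 0 d and 4 of them at 20 d over 0 d. The share called was 71.4% at 50 d, beside 26.6% of all genes (11% lower). At 20 d it was 57.1%, beside 12.4% of all genes (4.52% lower). DGAT2 Chr2.g41953 had 23.9, 13.2 and 16 FPKM at 0 d, 3.06, 6.63 and 3.59 FPKM at 20 d and 1.41, 1.73 and 3.00 FPKM at 50 d. DGAT2 Chr2.g42008 had 20.2, 20.2 and 20.6 FPKM at 0 d, 2.62, 7.81 and 5.46 FPKM at 20 d and 3.63, 4.16 and 5.54 FPKM at 50 d. WSD1 Chr7.g31721 had 12, 8.39 and 8.26 FPKM at 0 d, 1.03, 2.15 and 1.31 FPKM at 20 d and 0.763, 0.649 and 0.538 FPKM at 50 d. All 3 were lower in every cold-treated library than at 0 d, with log2 fold changes of -3.06 ± 0.44, adjusted p = 2.82e-04 for Chr2.g41953, -2.14 ± 0.39, adjusted p = 0.00127 for Chr2.g42008 and -3.80 ± 0.40, adjusted p = 4.56e-05 for Chr7.g31721 at 50 d over 0 d. The DGAT1 genes, chosen after their values were seen, averaged 29.8 ± 6.66 FPKM at 0 d, 10.4 ± 0.695 FPKM at 20 d and 6.88 ± 0.822 FPKM at 50 d (Chr15.g03000, -2.05 ± 0.29, adjusted p = 2.55e-04) and 38.9 ± 6.09 FPKM at 0 d, 22.4 ± 2.91 FPKM at 20 d and 12 ± 0.563 FPKM at 50 d (Chr2.g41751, -1.63 ± 0.27, adjusted p = 6.48e-04). The most abundant gene, DGAT2 Chr15.g02832, was not called, with 108, 71.7 and 106 FPKM at 0 d, 41.5, 60.8 and 38.4 FPKM at 20 d and 50.6, 71.4 and 80.4 FPKM at 50 d (-0.44 ± 0.31, adjusted p = 0.274). Its 20 d values lay below those at 0 d, while those at 50 d overlapped both. The 5 calls at 50 d over 0 d were made in each fit with 1 library left out and with the length trend removed. Of the 4 calls at 20 d over 0 d, that of Chr7.g31721 was kept in each fit with 1 library left out. Those of Chr2.g41953, Chr2.g42008 and Chr15.g03000 were lost in several of these edgeR fits (adjusted p up to 0.0343). DGAT1 and DGAT2 together summed to 202 ± 26.7 FPKM at 0 d, 89.4 ± 19.2 FPKM at 20 d and 92.9 ± 16.2 FPKM at 50 d, and Chr15.g02832 supplied 47.2%, 52.4% and 72.6% of this.

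**Figure D4:**
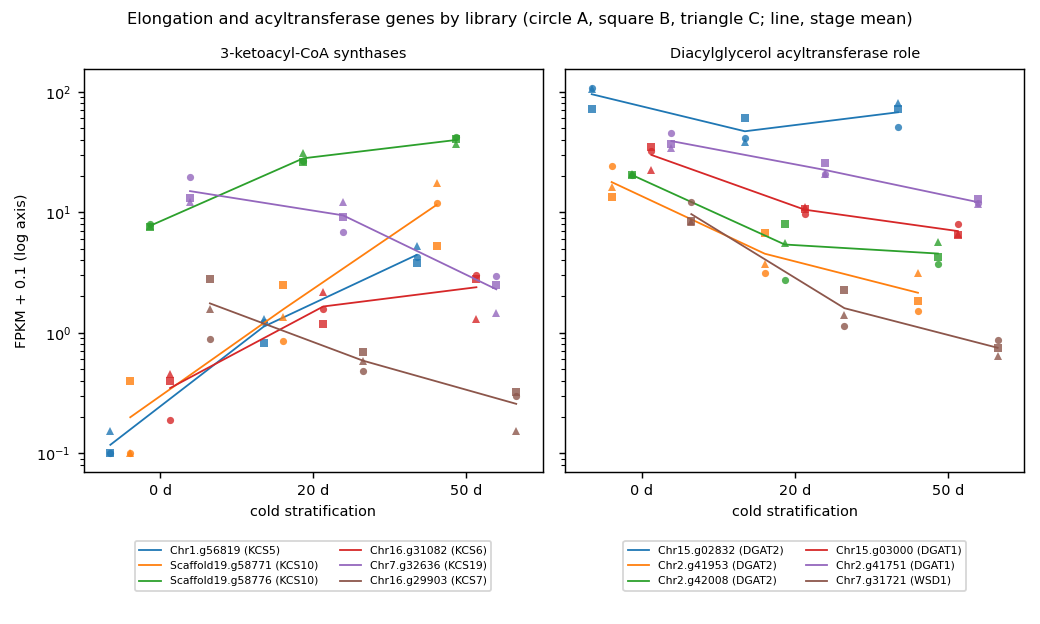
FPKM + 0.1 on a log axis in each library (circle A, square B, triangle C) with the mean of each stage as a line, for 3-ketoacyl-CoA synthases (KCS, left) and the diacylglycerol acyltransferase role (right). KCS10 Scaffold19.g58776 rises with tight replicates, KCS19 drops at 50 d, and 5 of the 6 acyltransferase genes drawn were called lower at 50 d over 0 d.

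Genes that work beside these enzymes were counted with the same calls at 50 d over 0 d. Of the plastid carbon supply (plastid pyruvate kinase and pyruvate dehydrogenase, which provide acetyl-CoA), 6 of 14 tested genes were called, all 6 higher, with a median log2 fold change of 1.21. The partners of KCS in the elongase (ketoacyl-CoA reductase, hydroxyacyl-CoA dehydratase and enoyl-CoA reductase) gave 2 calls of 13, both higher, with a median of 0.89. The other acyltransferases and phosphatases of glycerolipid assembly gave 6 higher and 3 lower of 30, with a median of 0.05. Of the seed regulators WRI1, LEC1-like (nuclear transcription factor Y subunit B-6 in Swissprot), LEC2, FUS3 and ABI3, 8 genes were tested and 1 was called, FUS3 Chr17.g24630 (chosen after its values were seen), which fell to 0.0529 FPKM at 50 d, against 1.07 FPKM at 0 d (adjusted p = 0.00543). Over all genes tested the median was 0.16 and 26.6% were called.

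Copies that share a Swissprot match did not always move alike. Among 32 matches with 2 or more tested genes, 1 held both a higher and a lower call at 50 d over 0 d, FAD2. The gap between the highest and the lowest log2 fold change was 8.15 for the FAD2 genes, 7.06 for the FAD5-type genes, 6.59 for the KCS10 genes and 5.43 for the plastid omega-3 pair that holds Chr1.g57141. It was 0.57 for the plastid omega-3 pair that holds Chr12.g35979, 0.40 for the KAS I pair and 0.42 for the DGAT1 pair. Reads that fit several near-identical copies may be split between them, so values of single copies are less certain than their sums.

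**Figure D5:**
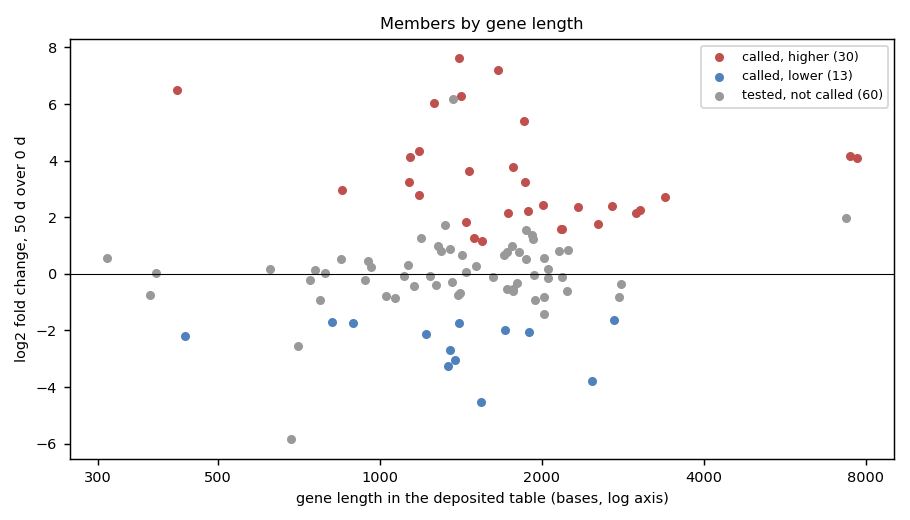
Log2 fold change at 50 d over 0 d by edgeR (vertical axis) against gene length on a log axis for the 103 tested genes, called higher (red, 30), called lower (blue, 13) or not called (grey, 60). The longest called genes, at 7696 and 7478 bases, are the ACC1 genes, and the shortest, at 420 bases, is the KCS10 match Scaffold19.g58771.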

How the data were processed

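Whole callery pear seeds were sampled in 3 biological replicates at 0, 20 and 50 d of cold stratification. The authors filtered the reads, aligned them with HISAT2 to the wild pear (P. betuleafolia) genome and deposited a raw count per gene for each of the 9 libraries. The FPKM values deposited by the authors divide those counts by gene length and by scaled library sizes, which are not the column sums. For the counting tool, its handling of reads that fit several copies and the versions, nothing was given in the sources used here. Another 15 deposited columns hold the authors' own comparisons between stages (means, fold changes and p-values) and were not used.

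Counts were tested with edgeR 4.0.16 (R 4.3.3; TMM factors, filterByExpr by stage, quasi-likelihood F test, stage as the only term, all 9 libraries), with Benjamini-Hochberg adjustment over the 28339 genes kept. Standard errors are the log2 fold change divided by the square root of F. Calls needed an adjusted p up to 0.01 and a change of 1 or more on the log2 scale, with a mean FPKM of 1 or more in either stage. The limits on fold and FPKM follow the study's methods. The number of replicates, 3 per stage, limits the precision. Per the study's methods each replicate was a lot of many seeds, so p-values measure the spread between such lots. Counting intervals (95%, exact, given where a stage held 1 to 3 counts) cover counting error only. The test was also run on simulated counts. These held no gene-length trend and no libraries that stood apart, so that run does not bear on either.

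Genes were placed in roles by their Swissprot names. In each role the text names the gene with the highest mean FPKM, the 3 largest rises and the 3 largest falls called at 50 d over 0 d, every called gene where a role has at most 4, up to 5 genes called at 50 d over 20 d or at 20 d only, and every called carboxylase and fatty acid synthase gene. The rule gave 46 genes. The genes, lists and tests were chosen with earlier results of these data known.

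Alternatives were DESeq2 1.42.0, testing without the low-count filter, RLE factors, dropping the FPKM limit or asking for it in both stages, an adjusted p limit of 0.05, a block for the replicate letter, a fit of the compared pair of stages alone, limma-trend (limma 3.58.1) on log2(FPKM + 1) and log2(FPKM + 0.1), and each library left out. Removal of the gene-length trend (loess, span 0.5), against all libraries or within stages, and leaving out both 20 d B and 50 d C were chosen after seeing the data.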

Additional observations from a re-analysis of the deposited data

How the results depend on the processing

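At 50 d over 0 d, 43 genes were called, with 33 to 46 in the fits with 1 library left out and 27 where both stages had to reach an FPKM of 1. At 20 d over 0 d the 30 calls became 12 to 39 with 1 library left out and 51 without both 20 d B and 50 d C. At 50 d over 20 d the 2 calls became 0 to 3 with 1 library left out (0 by edgeR without 20 d A, 20 d C or 50 d A, with 19, 17 and 16 genes at an unadjusted p under 0.05), 6 with DESeq2, with limma-trend on log2(FPKM + 1), without the low-count filter or at an adjusted p of at most 0.05, 4 (3 higher and 1 lower) with the length trend removed either way or without both libraries, 1 with an FPKM of 1 in both stages, and 0 with only these 2 stages fitted, where 19 genes had an unadjusted p under 0.05. The causes were not tested. No fold change of the 46 named genes turned its direction in a called result. Removing the length trend against all libraries moved the median log2 fold change of all genes at 50 d over 0 d to -0.19, against 0.16, and the pathway calls to 25 higher and 18 lower, of which 38 of the 43 were shared. Over these alternatives, calls among all genes ran between 1236 and 9898 at 20 d over 0 d (3515 as reported), 0 and 1620 at 50 d over 20 d (470) and 4829 and 12140 at 50 d over 0 d (7536).

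With the replicate letter as a block, 16 genes were called at 20 d over 0 d, 35 at 50 d over 0 d and 0 at 50 d over 20 d (16 at an unadjusted p under 0.05), beside 1292 (4.56%), 5163 (18.2%) and 50 (0.176%) of all genes. At 50 d over 0 d 8 of the 46 named genes lost their call. Deviations of same-lettered libraries correlated between -0.53 and 0.52, with both signs, and 20 d B went with 50 d C (0.70). Because these 2 libraries stood apart, the correlations cannot decide whether a letter marks the same lot of seeds at each stage.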
